A study of Homo sapiens with 12 samples.

Results

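The 9 genes described here are the serum and glucocorticoid regulated kinases SGK1, SGK2 and SGK3, the ubiquitin ligase NEDD4L, the epithelial sodium channel (ENaC) subunits SCNN1A, SCNN1B, SCNN1G and SCNN1D, and the sodium pump subunit ATP1B1. They were picked by symbol from the 51838 genes of the deposited count table, 1 row each, and all 9 passed the filter on low counts that left 28141 genes to test. The table covers 2 human breast cancer lines that the labels call basal-like, HCC70 and MDA-MB-231. Each line was given 100 nM dexamethasone, a synthetic glucocorticoid (DEX), or the same volume of ethanol (vehicle) for 4 h. There were 3 libraries in each of the 4 groups: HCC70 with DEX, HCC70 with vehicle, MDA-MB-231 with DEX and MDA-MB-231 with vehicle. The medium was RPMI for HCC70 and DMEM for MDA-MB-231, with serum in both, and effects of line and of medium cannot be told apart. Serum also carries its own steroids in all groups, and no steroid-free group was analysed here. Whether the 3 libraries of a group are separate cultures is not labelled, and the p-values cover only the spread between these libraries, which may be technical.

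In salt-absorbing epithelia, corticosteroids act through nuclear receptors that raise transcription of SGK1. SGK1 is a serine/threonine kinase of the AKT group that becomes active once mTORC2 and PDK1 have phosphorylated it. It phosphorylates NEDD4L, which then binds 14-3-3 proteins instead of the channel and no longer marks ENaC with ubiquitin for removal from the cell surface. The classical channel is built from an alpha (SCNN1A), a beta (SCNN1B) and a gamma (SCNN1G) subunit, and delta (SCNN1D) can take the place of alpha. Sodium that enters through the channel leaves the cell through Na,K-ATPase, whose beta1 subunit is ATP1B1. Counts of RNA say nothing of phosphorylation, of protein at the surface or of sodium current.

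The letters before transcription start sites are shown for the SGK1 and SCNN1B genes, since both rose with DEX in at least one line. They come from RefSeq promoter windows (GRCh38.p14, 250 bases before to 50 after a start), which covered 4 of the 9 genes, SGK1, SCNN1B, NEDD4L and ATP1B1, with 10 windows. They are not coordinates of the deposited files, which were made on hg19. SGK1 has 3 of these windows, and 2 are printed. The one with the hexamer, chr6:134177851-134178111 on the minus strand, is printed up to the receptor hexamer AGAACA (capitals), which begins at base 6 after the start. The one richest in G and C, chr6:134174867-134175116 on the minus strand, lies before another SGK1 start and has 76% G and C. The one not printed, chr6:134318113-134318362 on the minus strand, has 33.6% G and C and no hexamer. The SCNN1B window is chr16:23302052-23302301 on the plus strand, with 70% G and C.
SGK1 start with hexamer: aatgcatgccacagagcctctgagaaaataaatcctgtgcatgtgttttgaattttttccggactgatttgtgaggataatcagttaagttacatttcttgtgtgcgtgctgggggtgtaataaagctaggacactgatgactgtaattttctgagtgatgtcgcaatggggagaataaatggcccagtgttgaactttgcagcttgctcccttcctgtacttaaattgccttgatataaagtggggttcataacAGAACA
SGK1 GC-rich start: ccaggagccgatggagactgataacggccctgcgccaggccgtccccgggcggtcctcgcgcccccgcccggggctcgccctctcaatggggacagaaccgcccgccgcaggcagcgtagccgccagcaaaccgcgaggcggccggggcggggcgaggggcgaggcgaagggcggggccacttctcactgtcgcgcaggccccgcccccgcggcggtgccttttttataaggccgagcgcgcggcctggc
SCNN1B start: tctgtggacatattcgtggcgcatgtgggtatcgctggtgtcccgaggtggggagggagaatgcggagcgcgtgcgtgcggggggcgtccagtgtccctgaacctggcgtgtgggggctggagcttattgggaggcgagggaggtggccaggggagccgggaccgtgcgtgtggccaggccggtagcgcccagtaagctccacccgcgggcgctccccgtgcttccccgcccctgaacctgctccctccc

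The hexamer is one arm of the glucocorticoid response element. Neither the full element (AGAACA and TGTTCT with 3 free bases between them) nor a relaxed form (GNACA and TGTNC with 3 free bases between them), searched on both strands, was found in any of the 10 windows. Of all 35116 windows in the table, 0.00285% held the full form, 0.39% the relaxed form and 14.8% the hexamer alone or in the element. Besides the SGK1 window above, 1 of the 5 NEDD4L windows held the hexamer. A match is a match of letters only, and these windows leave out more distant sequence.

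Total counts ran from 106345287 to 123218973 per library. Levels are given in CPM (counts per 1e+06 after TMM scaling), as the mean ± SD of 3 libraries, and responses as the log2 fold change of DEX over vehicle ± SE with an adjusted p below 0.05 as the threshold (edgeR quasi-likelihood test, Benjamini-Hochberg over all 28141 genes). In MDA-MB-231, vehicle 1 and DEX 2 stood apart from the other libraries: correlations within a group were 0.9966 to 0.9976 in HCC70 and 0.9891 to 0.9966 in MDA-MB-231. Each library's deviation from the mean of its line also followed the GC content of genes, with Spearman's rho of 0.347 to 0.489 with DEX and −0.589 to −0.144 with vehicle in HCC70, and of −0.508 to 0.254 with DEX and −0.222 to 0.666 with vehicle in MDA-MB-231. A fit with an offset for both GC content and exon length is called the GC offset here. That fit and one without that pair of libraries are given below wherever they change a call of the 9 genes. Of 7 basal breast markers, MDA-MB-231 had 3 under 1 CPM with DEX (KRT14, DSG3, TP63) and 4 with vehicle (also KRT5), against 1 (TP63) and 0 in HCC70. The leukocyte markers PTPRC and CD3E and the endothelial markers CDH5 and VWF were under 1 CPM in all groups. Sums of 4 epithelial adhesion markers were 1963 to 2021 CPM with DEX and 1638 to 1691 CPM with vehicle in HCC70. In MDA-MB-231 these sums were 99.3 to 123 CPM with DEX and 234 to 308 CPM with vehicle. CLDN4 made up most of the MDA-MB-231 sums, at 91.6 CPM with DEX and 252 CPM with vehicle. CDH1 had 1.82 CPM with DEX and 2.28 CPM with vehicle there, and EPCAM 16 CPM with DEX and 15.3 CPM with vehicle. ESRP1 was under 1 CPM in that line. The part of these markers in the results below was not tested.

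In HCC70, DEX raised 3 of the 9 genes, SGK1, SCNN1A and SCNN1G, and lowered 0. Over all tested genes 3.96% passed, 2.55% higher and 1.4% lower. Without the MDA-MB-231 pair that stood apart, which shares the fit, 6 of the 9 passed, against 13.5% of all genes: SCNN1B joined the rises and SGK3 and ATP1B1 fell. In MDA-MB-231, DEX raised 4, SGK1, SCNN1A, SCNN1B and SCNN1G, and lowered 2, NEDD4L and ATP1B1, where 14.6% of all genes passed, 6.65% higher and 7.96% lower. Without the pair 7 passed there, against 20.3%, with SCNN1D the added fall. With each line fitted alone, 6 of the 9 passed in HCC70 and 6 in MDA-MB-231, where 4828 and 2116 of all genes were called. How many genes were called in 1 line beside the other thus depended on which libraries shared the fit. The median log2 fold change of the 9 genes was 0.39 in HCC70 and −0.15 in MDA-MB-231, beside −0.010 over all genes in each. These middle values were those of SCNN1D in HCC70 and SGK3 in MDA-MB-231, changes that did not pass. A gene's higher count can mean more RNA per cell or more cells that make it, and bulk libraries cannot tell these apart.

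**Figure D1:**
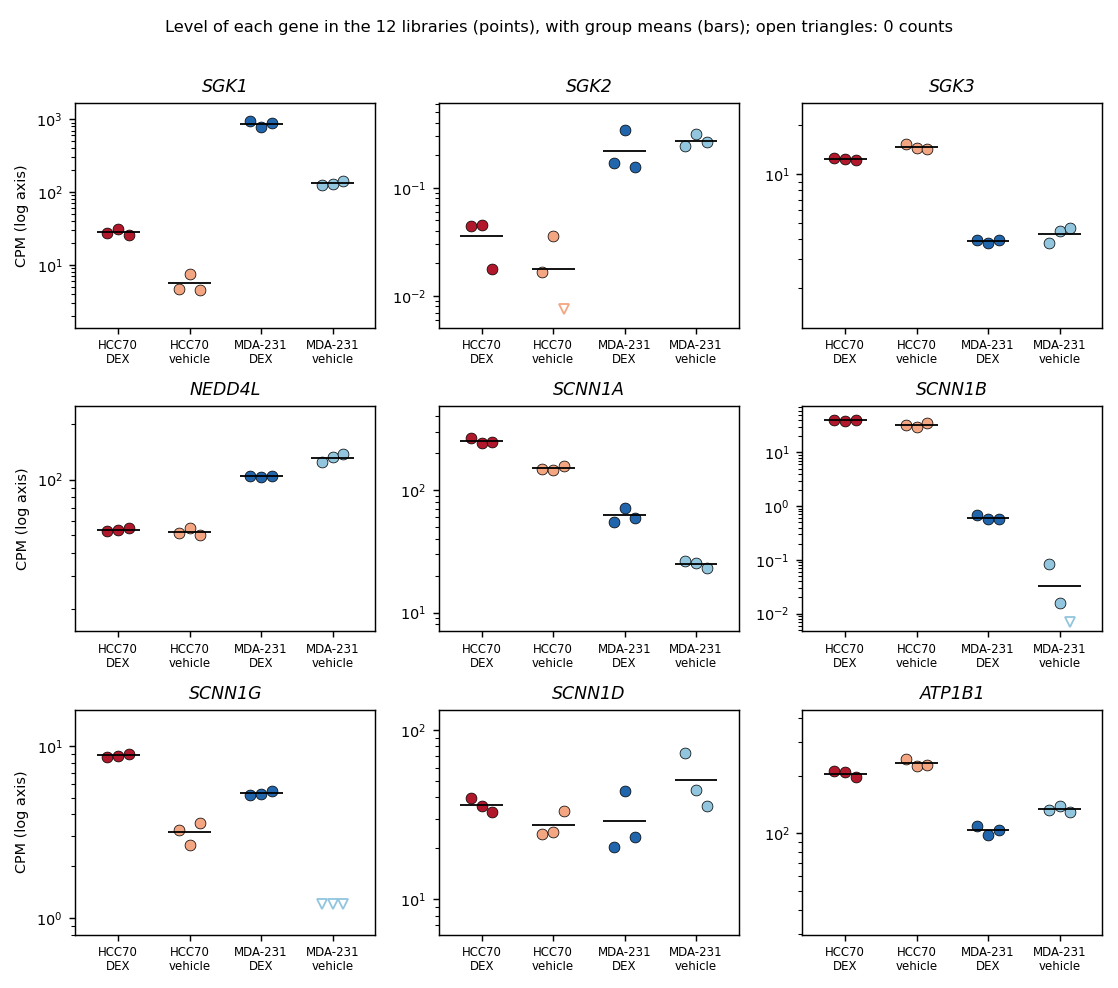
Levels of the 9 genes in CPM (log axes, one range per panel) in the 12 libraries, with DEX left of vehicle in each line; points are libraries, bars are group means and open triangles mark libraries with 0 counts. SGK1 separates all 4 groups, SCNN1G has 0 counts in all 3 MDA-MB-231 vehicle libraries, and SCNN1D overlaps between DEX and vehicle in each line.

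SGK1 was the kinase of the family that DEX raised in both lines. In HCC70 it had 27.1, 31.4 and 25.8 CPM with DEX and 4.72, 7.46 and 4.55 CPM with vehicle. The lowest DEX library lay above the highest vehicle library, and vehicle 2 was the highest of its group. The means were 28.1 ± 2.89 CPM with DEX and 5.58 ± 1.64 CPM with vehicle, 5.05-fold higher (log2 2.33 ± 0.17, adjusted p = 1.25e-05, edgeR). In MDA-MB-231 it had 932, 791 and 876 CPM with DEX and 125, 128 and 142 CPM with vehicle, and the groups were again apart. The means were 866 ± 71.4 CPM with DEX and 132 ± 9.06 CPM with vehicle, 6.57-fold higher with DEX (log2 2.72 ± 0.17, adjusted p = 5.28e-07, edgeR). Among called rises, SGK1 stood 28th of 719 by size in HCC70 and 106th of 1870 in MDA-MB-231. The responses of the lines were not told apart (HCC70 minus MDA-MB-231 −0.38 ± 0.23 in log2, adjusted p = 0.288, edgeR), which does not show that they were alike.

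SGK3, a family member with a lipid-binding PX domain that sits on endosomes, did not pass in either line. It had 12.7, 12.4 and 12.3 CPM with DEX and 15.3, 14.6 and 14.4 CPM with vehicle in HCC70. All DEX libraries lay below all vehicle libraries there (log2 −0.24 ± 0.077, adjusted p = 0.111, edgeR), and the call was made when the MDA-MB-231 pair was left out (adjusted p = 0.0139), its vehicle 1 alone was left out (0.0362), HCC70 was fitted alone (0.00783) or the strict filter of 5 CPM in 3 libraries was used (0.0451). In MDA-MB-231 it had 3.94, 3.76 and 3.92 CPM with DEX and 3.79, 4.48 and 4.65 CPM with vehicle. These groups overlapped (log2 −0.15 ± 0.082, adjusted p = 0.231, edgeR). Its exons overlap those of C8orf44 over 6.04% of their length, and that gene stayed at 1.31 CPM or below on average in every group.

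SGK2, a kinase of the same family, was near the limit of detection in HCC70 and low in MDA-MB-231. HCC70 had 5, 5 and 2 counts with DEX and 2, 4 and 0 counts with vehicle, which overlap. The ratio was 2.08, with a 95% counting interval of 0.721 to 6.74. MDA-MB-231 had 22, 42 and 20 counts with DEX and 29, 40 and 30 counts with vehicle, which also overlap. The ratio there was 0.8, with an interval of 0.591 to 1.08. Neither response passed (adjusted p = 0.537 and 0.639, edgeR), and intervals cover counting error only. In HCC70 the counts were too few for a small or moderate change to be detectable at this depth.

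The mix of the 3 kinases was compared per length of exon, that is as CPM divided by exon length in kb from a GRCh38 annotation. In HCC70, SGK1 made up 59.2 ± 2.39% of the summed level with DEX and 19.5 ± 4.65% with vehicle. SGK3 made up 40.7 ± 2.42% with DEX and 80.4 ± 4.75% with vehicle. SGK1 was thus the larger share in all 3 DEX libraries and the smaller one in all 3 vehicle libraries. In MDA-MB-231, SGK1 held 99.3 ± 0.065% with DEX and 94.8 ± 0.357% with vehicle. The groups did not overlap for either kinase in either line (exact permutation test, two-sided, p = 0.1 each, the smallest that 3 against 3 libraries allow). Summed levels of the kinases were 4.75 ± 0.296 CPM per kb with DEX and 2.84 ± 0.161 CPM per kb with vehicle in HCC70, and 87.3 ± 7.14 CPM per kb with DEX and 13.9 ± 0.963 CPM per kb with vehicle in MDA-MB-231.

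NEDD4L, the ligase that SGK1 phosphorylates, fell in MDA-MB-231. It had 105, 103 and 105 CPM with DEX and 124, 132 and 138 CPM with vehicle there. Every DEX library lay below every vehicle library, a 1.26-fold fall (log2 −0.33 ± 0.057, adjusted p = 0.00108, edgeR). In HCC70 it had 53.0, 53.1 and 55.0 CPM with DEX and 51.5, 54.7 and 50.2 CPM with vehicle, which overlap. The fitted change was 0.04 ± 0.057 in log2 (adjusted p = 0.731, edgeR), and its sign turned to −0.05 when libraries were scaled by size only (adjusted p = 0.755). The 2 responses differed by 0.37 ± 0.080 in log2, HCC70 minus MDA-MB-231 (adjusted p = 0.00948, edgeR), a call that ended with scaling by library size only (0.26, adjusted p = 0.103).

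SCNN1A, the alpha subunit needed for a working classical channel, rose in both lines. In HCC70 it had 269, 243 and 248 CPM with DEX and 148, 147 and 159 CPM with vehicle. All DEX libraries were higher, and the means of 253 ± 13.8 CPM with DEX and 152 ± 6.82 CPM with vehicle gave a 1.67-fold rise (log2 0.74 ± 0.088, adjusted p = 0.000179, edgeR). In MDA-MB-231 it had 55.4, 71.6 and 59.7 CPM with DEX and 26.6, 25.5 and 23.3 CPM with vehicle. The groups were apart, and the means of 62.2 ± 8.39 CPM with DEX and 25.1 ± 1.70 CPM with vehicle gave a 2.48-fold rise (log2 1.31 ± 0.089, adjusted p = 1.63e-07, edgeR). By size it was the 243rd of 719 called rises in HCC70 and the 362nd of 1870 in MDA-MB-231. SCNN1A shares 7.18% of its exon length with LTBR, the lymphotoxin beta receptor gene on the opposite strand, and the libraries did not keep strand. LTBR rose in HCC70 (225 ± 5.33 CPM with DEX and 159 ± 5.17 CPM with vehicle, log2 0.50, adjusted p = 0.00311, edgeR) and did not pass in MDA-MB-231 (141 ± 7.42 CPM with DEX and 119 ± 16.7 CPM with vehicle, log2 0.24, adjusted p = 0.0689, edgeR). Its part in the SCNN1A counts was not tested.

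SCNN1B, the beta subunit, rose in MDA-MB-231 and did not pass in HCC70. In MDA-MB-231 it had 88, 71 and 74 counts with DEX and 10, 2 and 0 counts with vehicle. The vehicle counts were few and 10 of the 12 came from vehicle 1. In CPM this was 0.607 ± 0.0581 with DEX and 0.0331 ± 0.0445 with vehicle, 17.8-fold higher (log2 4.15 ± 0.39, adjusted p = 1.15e-05, edgeR), with a counting ratio of 18.3 and a 95% interval of 10.3 to 35.9. Without vehicle 1 the log2 fold change was 6.04, and without vehicle 3 it was 3.62. In HCC70 it had 39.9, 39.0 and 40.1 CPM with DEX and 32.8, 29.2 and 35.1 CPM with vehicle. The DEX libraries lay above the vehicle libraries, with means of 39.7 ± 0.612 CPM with DEX and 32.4 ± 2.98 CPM with vehicle (log2 0.29 ± 0.14, adjusted p = 0.274, edgeR). That change passed with the DESeq2 Wald test (adjusted p = 0.0368), with HCC70 fitted alone (0.00292), and without the MDA-MB-231 pair (0.0139) or its vehicle 1 (0.0423).

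SCNN1G, the gamma subunit, rose in both lines and was not detected in MDA-MB-231 without DEX. MDA-MB-231 had 680, 650 and 708 counts with DEX and 0, 0 and 0 counts with vehicle. A count of 0 over the group allows up to 3 counts, or 0.00829 CPM, so the mean of 5.31 ± 0.148 CPM with DEX was at least 641-fold higher (adjusted p = 1.61e-10, edgeR). Of the 506 tested genes with 0 counts in all 3 MDA-MB-231 vehicle libraries, 10 rose with DEX (1.98%), and SCNN1G had the highest level of these, ahead of the homeodomain gene HOPX at 0.219 ± 0.0181 CPM. This set of 506 was chosen after the values were seen. Its genes could only rise from 0 counts, and they passed the filter on low counts through other groups. The share and the rank are thus descriptions only. In HCC70, SCNN1G had 8.62, 8.77 and 9.03 CPM with DEX and 3.26, 2.64 and 3.56 CPM with vehicle. The groups were apart, and the means of 8.81 ± 0.203 CPM with DEX and 3.16 ± 0.472 CPM with vehicle gave a 2.79-fold rise (log2 1.48 ± 0.11, adjusted p = 9.14e-06, edgeR), 69th of 719 called rises by size.

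SCNN1D, the delta subunit, did not pass in either line, and its libraries were far apart in MDA-MB-231, at 29.1 ± 12.7 CPM with DEX and 51.0 ± 19.8 CPM with vehicle. HCC70 had 39.6, 35.8 and 32.7 CPM with DEX and 24.3, 24.9 and 33.2 CPM with vehicle, which overlap (log2 0.39 ± 0.33, adjusted p = 0.559, edgeR). MDA-MB-231 had 20.4, 43.6 and 23.2 CPM with DEX and 73.3, 44.3 and 35.4 CPM with vehicle. There DEX 2 overlapped the vehicle libraries, and vehicle 1 was the highest of all 12 (log2 −0.81 ± 0.33, adjusted p = 0.132, edgeR). SCNN1D has the highest GC content of the 9 genes, 65.4%. With the GC offset, which also covers exon length, the log2 fold changes were 0.08 in HCC70 (adjusted p = 0.824) and −0.38 in MDA-MB-231 (0.117). The fall in MDA-MB-231 passed without DEX 2 (−1.19, adjusted p = 0.0182) and without the pair (−0.85, 0.006).

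ATP1B1, the beta1 subunit that carries the pump to the plasma membrane, fell in MDA-MB-231. It had 109, 98.6 and 104 CPM with DEX and 132, 139 and 130 CPM with vehicle there, and the groups were apart. The means of 104 ± 5.47 CPM with DEX and 134 ± 4.84 CPM with vehicle gave a 1.29-fold fall (log2 −0.36 ± 0.061, adjusted p = 0.000968, edgeR). In HCC70 it had 210, 208 and 196 CPM with DEX and 244, 223 and 227 CPM with vehicle. All DEX libraries were lower, but the change did not pass (log2 −0.18 ± 0.061, adjusted p = 0.137, edgeR) unless the MDA-MB-231 pair was left out (0.0316) or HCC70 was fitted alone (0.019). Its exons overlap those of NME7 over 6.48% of their length, and NME7 did not pass in either line (log2 −0.25 in HCC70, adjusted p = 0.114, and 0.08 in MDA-MB-231, adjusted p = 0.537, edgeR).

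**Figure D2:**
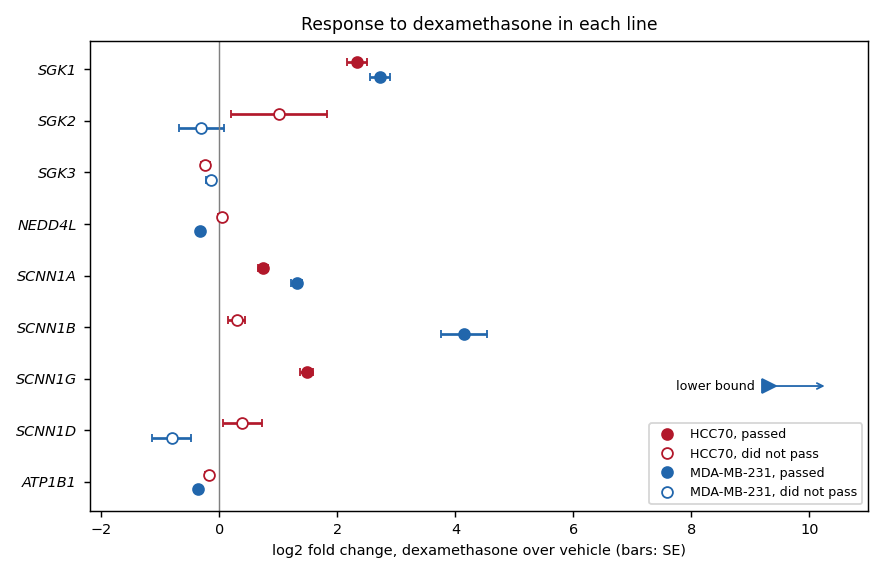
Log2 fold change of DEX over vehicle ± SE for the 9 genes in HCC70 (red) and MDA-MB-231 (blue), filled where the adjusted p was under 0.05 (edgeR). The arrow for SCNN1G in MDA-MB-231 starts at its lower bound of 9.32, and SGK1 lies at 2.33 in HCC70 and 2.72 in MDA-MB-231.

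The shares of the alpha, beta and gamma subunits did not overlap between DEX and vehicle libraries in either line. Per kb of exon, alpha, beta and gamma made up 77.3 ± 0.906%, 18.2 ± 0.642% and 4.51 ± 0.265% of their sum in HCC70 with DEX. With vehicle they made up 73.8 ± 1.31%, 23.6 ± 1.05% and 2.57 ± 0.265%. Beta thus took a smaller share with DEX, and alpha and gamma a larger one, with no overlap between the groups. In MDA-MB-231 the shares were 86.3 ± 1.63%, 1.28 ± 0.251% and 12.5 ± 1.42% with DEX and 99.8 ± 0.248%, 0.187 ± 0.248% and 0% with vehicle. Gamma there exceeded beta in all 3 DEX libraries, while beta exceeded gamma in all 6 HCC70 libraries. Each share and each sum differed without overlap (exact permutation test, two-sided, p = 0.1 each, the smallest possible). The sum of the 3 subunits was 55.7 ± 2.41 CPM per kb with DEX and 34.9 ± 1.96 CPM per kb with vehicle in HCC70, and 12.3 ± 1.41 CPM per kb with DEX and 4.29 ± 0.298 CPM per kb with vehicle in MDA-MB-231. With delta counted too, delta made up 13.8 ± 0.840% with DEX and 16.2 ± 1.72% with vehicle in HCC70. In MDA-MB-231 delta made up 36.0 ± 6.91% with DEX and 73.5 ± 5.75% with vehicle, though the SCNN1D change itself did not pass. The sum with delta was 64.7 ± 3.12 CPM per kb with DEX and 41.8 ± 3.14 CPM per kb with vehicle in HCC70. In MDA-MB-231 that sum was 19.5 ± 4.55 CPM per kb with DEX and 17 ± 5.19 CPM per kb with vehicle, and these groups overlapped. The exon lengths come from GRCh38 and count every annotated exon, so shares between genes depend on that annotation more than shares between groups do.

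**Figure D3:**
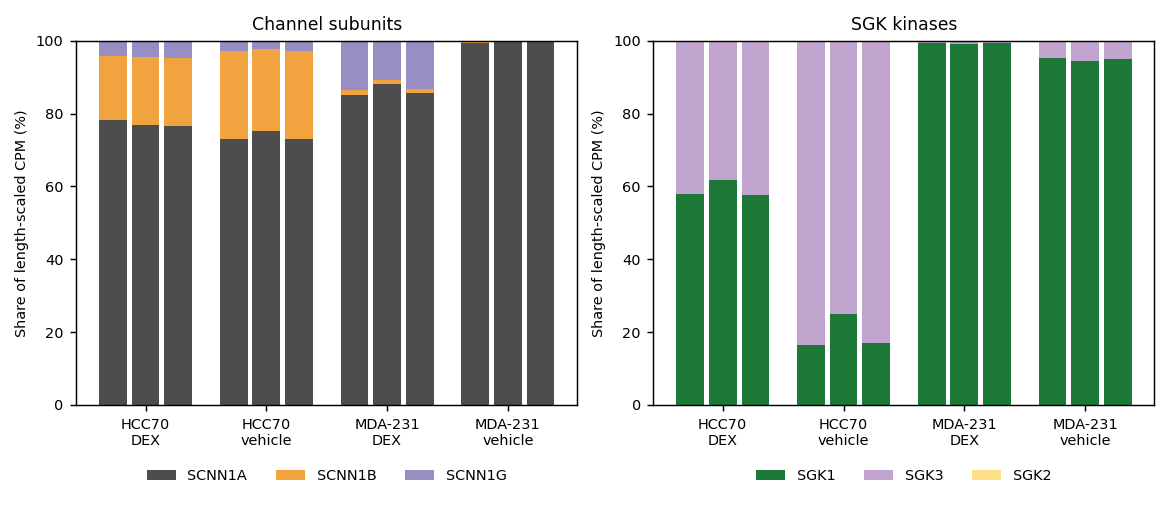
Share in percent of the summed CPM per kb of exon for the ENaC subunits alpha, beta and gamma (left) and the SGK kinases (right), 1 bar per library with DEX left of vehicle in each line. Gamma appears in the MDA-MB-231 bars with DEX (mean 12.5%) and not in those with vehicle, and SGK1 is the larger share of HCC70 bars with DEX (mean 59.2%) and the smaller one with vehicle (mean 19.5%).

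The lines differed in the same genes without DEX. With vehicle, all 9 genes differed between HCC70 and MDA-MB-231, where 79.2% of all tested genes did (39.2% higher and 40.0% lower in HCC70), so the count of 9 stands close to what most genes showed. Without the MDA-MB-231 pair it was also 9, against 79.4%. The median log2 difference of the 9 genes was 0.79, beside −0.027 over all genes. The channel and pump genes SCNN1A, SCNN1B, SCNN1G and ATP1B1 and the kinase SGK3 were higher in HCC70, and SGK1, SGK2, NEDD4L and SCNN1D were lower. SCNN1A was 6.03-fold higher (152 ± 6.82 CPM in HCC70 and 25.1 ± 1.70 CPM in MDA-MB-231, log2 2.59 ± 0.093, adjusted p = 3.85e-12, edgeR). SCNN1B was 946-fold higher (log2 9.89 ± 0.27, adjusted p = 1.42e-12, edgeR), a value that rests on the 12 counts of MDA-MB-231 and was 11.75 in log2 without its vehicle 1. SCNN1G was at least 381-fold higher (1097 counts in HCC70 and 0 in MDA-MB-231, adjusted p = 8.48e-12, edgeR). SGK3 was 3.43-fold higher (adjusted p = 5.55e-11, edgeR) and ATP1B1 1.73-fold higher (2.21e-08).

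In the other direction, SGK1 was 23.7-fold lower in HCC70 with vehicle (log2 −4.56 ± 0.18, adjusted p = 3.8e-10, edgeR). The level that HCC70 reached with DEX, 28.1 ± 2.89 CPM, was still below the 132 ± 9.06 CPM of MDA-MB-231 with vehicle. NEDD4L was 2.52-fold lower in HCC70 (adjusted p = 2.91e-11, edgeR) and SGK2 14.9-fold lower, with 6 counts in HCC70 and 99 in MDA-MB-231 (2.43e-05). SCNN1D was 1.86-fold lower in HCC70 (log2 −0.89 ± 0.33, adjusted p = 0.0297, edgeR). The SCNN1D call ended without HCC70 vehicle 1 (0.0844), HCC70 vehicle 2 (0.0812) or MDA-MB-231 vehicle 1 (0.117), and without the filter on low counts (0.0547).

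Ordered over the 4 groups, SGK1 ran from MDA-MB-231 with DEX through MDA-MB-231 with vehicle and HCC70 with DEX down to HCC70 with vehicle, with no overlap between neighbours. SCNN1A and SCNN1B ran from HCC70 with DEX through HCC70 with vehicle and MDA-MB-231 with DEX down to MDA-MB-231 with vehicle, also with no overlap. For SCNN1G the middle groups were exchanged: MDA-MB-231 with DEX, at 5.31 ± 0.148 CPM, lay above HCC70 with vehicle, at 3.16 ± 0.472 CPM. ATP1B1 and SGK3 ran from HCC70 with vehicle through HCC70 with DEX and MDA-MB-231 with vehicle to MDA-MB-231 with DEX, and only the last neighbours of SGK3 overlapped. For NEDD4L the order was MDA-MB-231 with vehicle, MDA-MB-231 with DEX, then both HCC70 groups, which overlapped. For SCNN1D each neighbouring pair of groups overlapped.

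The responses of the lines differed for 4 of the 9 genes, where 12.1% of all tested genes differed (6.96% with a higher and 5.09% with a lower response in HCC70). Without the MDA-MB-231 pair it was 5, against 21.7%. The median difference of the 9 genes was −0.09, beside −0.015 over all genes. For SCNN1A the difference, HCC70 minus MDA-MB-231, was −0.57 ± 0.12 in log2 (adjusted p = 0.011, edgeR), that is a smaller rise in HCC70. For SCNN1B it was −3.86 ± 0.44 (adjusted p = 0.000119, edgeR), and −5.75 without MDA-MB-231 vehicle 1. SCNN1G differed too (adjusted p = 2.05e-08, edgeR), with no fitted size given because MDA-MB-231 vehicle had 0 counts. NEDD4L is given above. For ATP1B1 (0.19 ± 0.086, adjusted p = 0.164) and SCNN1D (1.20 ± 0.46, adjusted p = 0.117) the difference did not pass with edgeR. It passed for ATP1B1 with the GC offset (0.33, adjusted p = 0.00386), and for SCNN1D without DEX 2 of MDA-MB-231 (1.59, 0.018) or without the pair (1.25, 0.00287).

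Genes around this pathway were followed in 11 lists with 93 genes. They were chosen with earlier results of these data known, so their counts are descriptions, to be read beside the 3.96% and 14.6% of all genes called in HCC70 and MDA-MB-231 and a median of −0.010 in each. Of 8 proteases that cut ENaC open and their inhibitors, 0 rose and 0 fell in HCC70, and 0 rose and 3 fell in MDA-MB-231, with list medians of 0.16 and −0.48 in log2. PLAU, urokinase, fell 1.63-fold in MDA-MB-231 (149 ± 4.53 CPM with DEX and 244 ± 8.48 CPM with vehicle, adjusted p = 6.78e-07, edgeR). PLAU shares 31.1% of its exon length with C10orf55 on the opposite strand, and the part of that gene in the PLAU counts was not tested. The calls of ST14, the protease matriptase (−0.45, adjusted p = 0.0166, edgeR), and SPINT1, its inhibitor (−0.29, 0.0441), ended with the GC offset (0.168 and 0.559). In HCC70, ST14 passed without the MDA-MB-231 pair (0.28, adjusted p = 0.00337).

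Among 8 other HECT ubiquitin ligases of the NEDD4 family, 0 rose and 1 fell in HCC70, and 1 rose and 3 fell in MDA-MB-231 (medians −0.01 and −0.13). NEDD4, the closest relative of NEDD4L, went in opposite directions. It was 1.25-fold lower in HCC70 (12.2 ± 0.979 CPM with DEX and 15.3 ± 0.794 CPM with vehicle, adjusted p = 0.0375, edgeR), a call that ended without DEX 2 or 3 or any 1 vehicle library of HCC70 (adjusted p up to 0.172) and without DEX 1 or 3 of MDA-MB-231 (0.0503 and 0.0591). It was 1.78-fold higher in MDA-MB-231 (66.8 ± 1.44 CPM with DEX and 37.6 ± 3.84 CPM with vehicle, adjusted p = 4.7e-06, edgeR), and the responses differed by −1.15 ± 0.11 in log2 (adjusted p = 1.64e-05, edgeR). SMURF2, a ligase of TGF-beta receptors and SMAD proteins, fell 1.83-fold in MDA-MB-231 (107 ± 7.49 CPM with DEX and 196 ± 13.0 CPM with vehicle, adjusted p = 1.07e-06, edgeR). Its relative SMURF1 fell 1.29-fold and HECW2 1.38-fold (adjusted p = 0.000114 and 0.0036, edgeR).

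Of 9 deubiquitinases and adaptors that act on ENaC turnover, 1 rose and 0 fell in HCC70, and 4 rose and 2 fell in MDA-MB-231 (medians −0.01 and 0.23). CNKSR3, a scaffold that brings SGK1 and NEDD4L to the channel, was the gene that rose in HCC70 (13.4 ± 0.209 CPM with DEX and 9.13 ± 0.576 CPM with vehicle, 1.47-fold, adjusted p = 0.000143, edgeR). It fell 1.23-fold in MDA-MB-231 (20.5 ± 0.163 CPM with DEX and 25.3 ± 1.09 CPM with vehicle, adjusted p = 0.00471, edgeR), and the responses differed by 0.85 ± 0.089 in log2 (adjusted p = 3.04e-05, edgeR). In MDA-MB-231 the deubiquitinase USP2 rose 2.4-fold (0.676 ± 0.155 CPM with DEX and 0.278 ± 0.105 CPM with vehicle, adjusted p = 0.00173, edgeR) and RASA1, a Ras GTPase activating protein, fell 1.58-fold (adjusted p = 4.26e-06, edgeR). NDFIP1, which recruits NEDD4 family ligases, rose 1.24-fold (adjusted p = 0.0129, edgeR), a call that ended without DEX 1 or DEX 3 of MDA-MB-231 (0.0628 and 0.0642).

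The kinases and phosphatases that set SGK1 activity gave 1 rise and 0 falls of 13 in HCC70 and 2 rises and 0 falls in MDA-MB-231 (medians 0.06 and −0.05). PHLPP1, a phosphatase of AKT and SGK1, rose 1.83-fold in MDA-MB-231 (43.0 ± 4.54 CPM with DEX and 23.5 ± 2.89 CPM with vehicle, adjusted p = 1.16e-05, edgeR). The calls of the mTORC2 subunits PRR5 in HCC70 (0.49, adjusted p = 0.0201, edgeR) and MAPKAP1 in MDA-MB-231 (0.18, 0.0425) ended when single libraries were left out (adjusted p up to 0.126 and 0.175). With the GC offset, PRR5 was at 0.25 (adjusted p = 0.245). The AKT kinases gave 0 rises and 0 falls of 3 in either line with edgeR (medians 0.15 and −0.24). AKT1 had 1297 CPM with DEX and 1097 CPM with vehicle in HCC70 (log2 0.24, adjusted p = 0.489, edgeR), and 603 CPM with DEX and 805 CPM with vehicle in MDA-MB-231 (−0.42, 0.135). AKT1 passed without the MDA-MB-231 pair in both lines (adjusted p = 0.021 and 0.0109), and its HCC70 value turned to −0.03 with the GC offset. AKT2 passed without the pair in MDA-MB-231 (−0.24, adjusted p = 0.0143) and was at 0.00 there with the GC offset.

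Of 8 known SGK1 substrates other than NEDD4L, 1 rose and 0 fell in HCC70, and 3 rose and 0 fell in MDA-MB-231 (medians 0.06 and 0.05). FOXO3, a transcription factor held out of the nucleus by AKT and SGK phosphorylation, rose 1.38-fold in HCC70 (114 ± 1.89 CPM with DEX and 83.1 ± 5.18 CPM with vehicle, adjusted p = 0.00803, edgeR; 0.0564 without vehicle 2). It rose 1.48-fold in MDA-MB-231 (80.3 ± 8.31 CPM with DEX and 54.4 ± 6.06 CPM with vehicle, adjusted p = 0.000534, edgeR). FOXO1, a relative with the same control, had 15 ± 0.435 CPM with DEX and 4.13 ± 0.441 CPM with vehicle in MDA-MB-231 (log2 1.86 ± 0.078, adjusted p = 1.01e-09, edgeR). NDRG1, whose phosphorylation is used as a readout of SGK1 activity, rose 1.23-fold in MDA-MB-231 (adjusted p = 0.0107, edgeR). Of 6 WNK pathway kinases, 0 rose and 0 fell in HCC70, and 2 rose and 1 fell in MDA-MB-231 (medians 0.09 and −0.02). OXSR1 and STK39, the kinases that WNKs switch on, rose 1.48-fold and 1.4-fold (adjusted p = 3.41e-05 and 0.000158, edgeR), while the fall of WNK4 (−0.46, adjusted p = 0.0235, edgeR) ended with the GC offset (0.342).

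Of 13 other Na,K-ATPase subunits and FXYD regulators, 8 were tested. In each line 1 rose and 0 fell (medians 0.00 and 0.08). Of 9 tested of 12 other transporters and water channels, 1 rose and 0 fell in HCC70, and 1 rose and 3 fell in MDA-MB-231 (medians 0.44 and −0.51). AQP3, a channel for water and glycerol, rose in both, 2.42-fold in HCC70 (237 ± 5.26 CPM with DEX and 97.8 ± 5.11 CPM with vehicle, adjusted p = 4.02e-06, edgeR) and 1.48-fold in MDA-MB-231 (55.5 ± 6.72 CPM with DEX and 37.4 ± 4.99 CPM with vehicle, adjusted p = 0.0013, edgeR). The MDA-MB-231 calls of AQP5 (−1.43) and SLC9A3R2 (−0.67) ended with MDA-MB-231 fitted alone (adjusted p = 0.0726 and 0.0581). With the GC offset, SLC9A3R2 was at −0.16 (adjusted p = 0.11). Of 5 acid-sensing channels of the same protein family, 3 were tested, and ASIC1 alone was called, lower with DEX in MDA-MB-231 (medians 0.15 and −0.45, ASIC1 −0.54, adjusted p = 0.00531, edgeR; 0.0513 with that line fitted alone).

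Of 8 corticosteroid receptors, converting enzymes and induced regulators, 4 rose and 0 fell in HCC70 (HSD11B2, PER1, FKBP5 and TSC22D3), and 4 rose and 2 fell in MDA-MB-231 (ZBTB16, TSC22D3, FKBP5 and PER1 were the rises), with medians of 2.03 and 2.24. The 2 that fell, named after their values were seen, were the receptors themselves: NR3C1, the glucocorticoid receptor, at 88.9 CPM with DEX and 125 CPM with vehicle (adjusted p = 0.000112, edgeR), and NR3C2, the mineralocorticoid receptor, at 1.37 CPM with DEX and 2.09 CPM with vehicle (adjusted p = 0.00082, edgeR). HSD11B2, which inactivates cortisol but spares aldosterone and so decides what reaches the mineralocorticoid receptor in ENaC tissues, had 234 CPM with DEX and 30.9 CPM with vehicle in HCC70 (7.58-fold, adjusted p = 3.84e-07, edgeR).

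With vehicle, the counts of the same lists between the lines are to be read beside the 79.2% of all genes called and a median log2 difference of −0.027. Of the proteases and inhibitors, 5 of the 8 were higher and 2 lower in HCC70 (median 3.59). The protease TMPRSS4 had 117 CPM in HCC70 and 0.0112 CPM in MDA-MB-231, and PRSS8, prostasin, had 250 CPM in HCC70 and 0.447 CPM in MDA-MB-231 (561-fold, adjusted p = 8.26e-12, edgeR). HECT ligases were higher for 3 and lower for 4 of 8 (median −0.31), with SMURF2 at 15.2 CPM in HCC70 and 196 CPM in MDA-MB-231 and HECW1 at 0.29 CPM in HCC70 and 1.46 CPM in MDA-MB-231. Turnover genes were higher for 3 and lower for 5 of 9 (median −0.41), with USP2 16.4-fold higher and CNKSR3 2.77-fold lower in HCC70 (adjusted p = 1.88e-10 and 3.29e-11, edgeR). Pump genes were higher for 6 and lower for 2 of 8 (median 1.38). FXYD3, a small regulator of the pump, had 91.0 CPM in HCC70 and 0 counts in MDA-MB-231.

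Upstream of SGK1, 10 of 13 genes were higher and 3 lower in HCC70 with vehicle (median 0.69). The mTORC2 subunit PRR5 had 26.6 CPM in HCC70 and 0.567 CPM in MDA-MB-231, while its paralog PRR5L had 0.668 CPM in HCC70 and 17.1 CPM in MDA-MB-231. Likewise WNK2 had 317 CPM in HCC70 and 0.501 CPM in MDA-MB-231, and WNK3 had 0.115 CPM in HCC70 and 9.79 CPM in MDA-MB-231 (3 of 6 WNK genes higher and 3 lower, median −0.62). AKT1 was called higher (0.45, adjusted p = 0.0333, edgeR), which ended without HCC70 vehicle 2 (0.0713) or 3 (0.0844) or MDA-MB-231 vehicle 2 (0.105) or 3 (0.117) and turned to −0.07 with the GC offset. Of the SGK1 substrates 6 of 8 were higher and 2 lower (median 1.46), with NDRG2 90.9-fold and FOXO1 6.92-fold higher in HCC70 (adjusted p = 3.21e-11 and 3.17e-13, edgeR). Of the corticosteroid genes 3 of 8 were higher and 3 lower (median −0.18). HSD11B2 was 41.7-fold higher in HCC70 (30.9 CPM in HCC70 and 0.739 CPM in MDA-MB-231, adjusted p = 4.56e-11, edgeR), and HSD11B1, which makes the active steroid, had 0 counts in HCC70 and 0.163 CPM in MDA-MB-231. Of the acid-sensing channels 0 of 3 were higher and 2 lower (median −0.98), ASIC1 3.32-fold and ASIC3 1.97-fold (adjusted p = 5.83e-09 and 9.38e-05, edgeR). Of the other transporters 6 of 9 were higher and 2 lower (median 1.39), with the potassium channel KCNK1 at 55.3 CPM in HCC70 and 0.649 CPM in MDA-MB-231 and SLC12A1, a sodium, potassium and chloride cotransporter, at 0.111 CPM in HCC70 and 0.00279 CPM in MDA-MB-231.

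**Figure D4:**
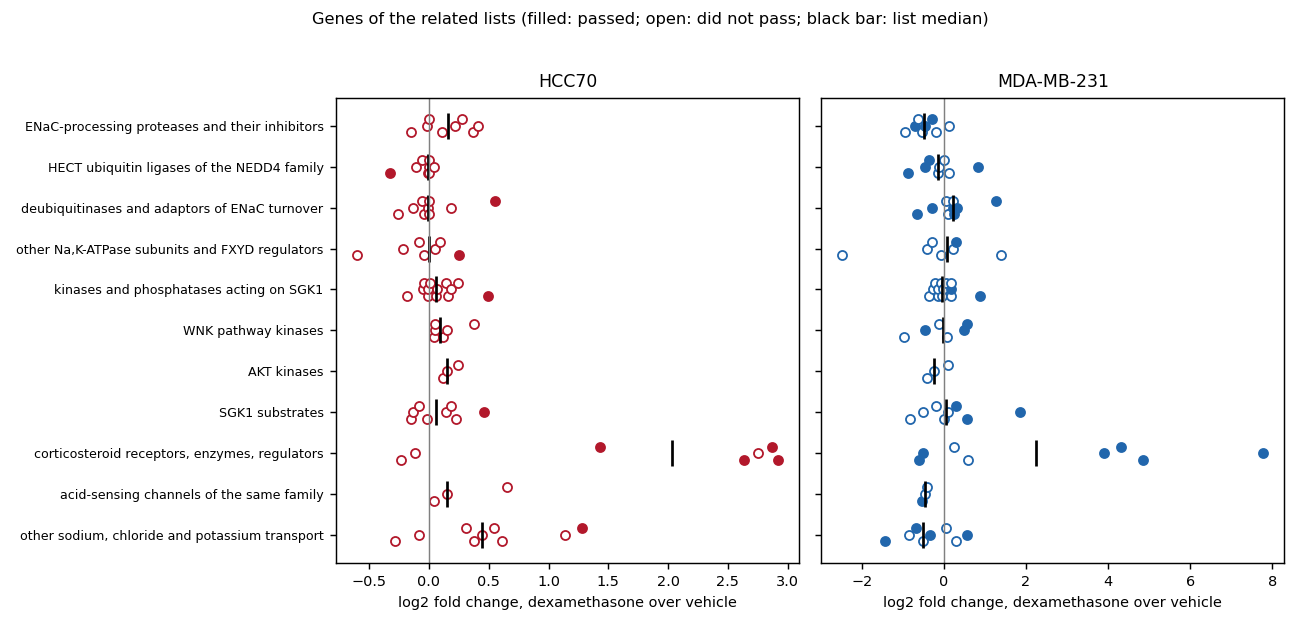
Log2 fold change of DEX over vehicle for the genes of the 11 lists in HCC70 (left) and MDA-MB-231 (right), filled where the adjusted p was under 0.05 (edgeR), with list medians as black bars; genes with 0 counts in a whole group are left out and the horizontal axes differ. Most points lie near 0, the corticosteroid list reaches 2.92 in HCC70 and 7.78 in MDA-MB-231, and 3 genes of the protease and inhibitor list are filled in MDA-MB-231 and 0 in HCC70.

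The genes most like SGK1 over the 12 libraries, by Pearson's r of log2 CPM, were ST3GAL1 (0.9943), BIRC2 (0.9910), TMEM43 (0.9900), LDLRAD3 (0.9899) and CPT1A (0.9897). The search covered 14354 genes, those whose average log2 CPM was 1 or more. Those most like SCNN1A were BCL6 (0.9975), PRKCD (0.9922), ACSL1 (0.9921), SP6 (0.9919) and RP1-130H16.18 (0.9914). These values describe 12 libraries in 4 groups, so a shared difference between the lines weighs heavily in them.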

How the data were processed

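RNA was measured by sequencing of polyA-selected, transposase-based, non-stranded libraries, per the labels' protocols, in 12 libraries, 3 for each pair of line and treatment named in the labels. The deposited table holds the authors' whole-number read counts per gene, with no scaling between libraries. Reads were mapped to hg19 with TopHat 1.4.1, Cufflinks 1.3.0 and bedtools among the tools, per the submitters' processing notes; which tool made the counts is not given in the sources used here. Genes were kept with edgeR's filter at a minimum count of 10, scaled by TMM, and fitted with 1 mean per group over all 12 libraries (edgeR 4.0.16 quasi-likelihood test, R 4.3.3, two-sided). DESeq2 1.42.0 and limma 3.58.1 gave alternatives. The scripts were tested on simulated data. Depth was 106345287 to 123218973 counts per library, and a count of 0 allows 3 counts over a group. GC content, exon length and exon overlap came from a GRCh38 annotation, with a GC value for 89.8% of tested genes. No 2 libraries of a group were alike within counting noise. The 9 genes and the lists were chosen with earlier results of these data known. All 9 genes are named in each comparison; of each list, up to 4 called genes per DEX comparison with the largest change, or else the 2 with the highest level, and up to 2 in vehicle are given. Some genes that this rule picks are not reported here. A planned comparison of protein sequences was not run.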

Additional observations from a re-analysis of the deposited data

Results flagged for a closer look

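By a test of the difference itself, the DEX response differed between the lines for 4 of the 9 genes (edgeR quasi-likelihood, adjusted over all tested genes). Of all tested genes, 12.1% differed. Genes in most of the lists differed too, and only the 2 called in opposite directions in HCC70 and MDA-MB-231 are given here. NEDD4L, at 0.04 in HCC70 and −0.33 in MDA-MB-231 (log2), had an adjusted p of 0.00948, and 0.103 with scaling by library size only. SCNN1A, higher with DEX in 3 of 3 libraries of each line and less so in HCC70, had an adjusted p of 0.011 (edgeR). SCNN1B, with a larger rise in MDA-MB-231, where vehicle had 12 counts in all, had an adjusted p of 0.000119 (edgeR). SCNN1G, with 0 counts in MDA-MB-231 vehicle, had an adjusted p of 2.05e-08 (edgeR). The ligase gene NEDD4, lower in HCC70 and higher in MDA-MB-231, had an adjusted p of 1.64e-05 (edgeR). CNKSR3, higher in HCC70 and lower in MDA-MB-231, had an adjusted p of 3.04e-05 (edgeR). Line and culture medium differ together in each of these.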

How the results depend on the processing

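For the 9 genes, most values under the alternatives kept their direction and side of the threshold: 194 of 205 in HCC70, 204 of 206 in MDA-MB-231, 193 of 197 with vehicle and 192 of 197 for the difference. The exceptions are given with each gene or below. The count of called genes moved more. In HCC70 it was 1114, against 1679 with the DESeq2 Wald test, 1961 with the GC and length offset, 4828 with HCC70 alone, 3867 without the MDA-MB-231 pair, and 510 to 1775 with 1 library left out; members called were 6 with HCC70 alone, 6 without the pair and 3 to 5 with 1 library left out. In MDA-MB-231 it was 4110, against 2116 with that line alone and 2424 to 6452 with 1 library left out (members 6 to 7). With vehicle it was 22294, against 11980 with the strict filter, where fewer genes are tested (members 8 to 9 with 1 library left out). For the difference it was 3391, against 6206 without the pair and 1614 to 6259 with 1 library left out (members 4 to 5). The cause of these moves was not tested. Calls in HCC70 split into 719 higher and 395 lower, 552 and 762 with scaling by library size only, and 607 and 565 with the strict filter; the difference split into 1960 and 1431, 1766 and 2498, and 1929 and 2251. Library size only moved the median of all genes by −0.111 for the difference. A fit with the replicate number as a block, where same-numbered libraries did not deviate together (r −0.511 to 0.257), gave 695 calls in HCC70 and 2059 for the difference. With the GC offset and block, ATP1B1 passed for the difference (0.33, adjusted p = 0.00656); the block alone changed no call of the 9 genes. Signs turned, in values that did not pass under the alternative: NEDD4L (−0.05), WNK1 (−0.03) and ASIC3 (−0.04) in HCC70 with library size only; with the GC offset, with or without the block, AKT1 (−0.03), AKT2 (−0.06) and ASIC3 (−0.19) in HCC70, AKT2 (0.00) in MDA-MB-231 and AKT1 (−0.07) with vehicle; and ASIC3 (−0.02) in HCC70 without DEX 1 or vehicle 1 (−0.02 to 0.13 with 1 library left out). Depth limits SGK2, most of all in HCC70, and SCNN1B in MDA-MB-231 vehicle.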
